A study of Homo sapiens with 27 samples.

Results

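The matrix glycoproteins and proteoglycans described here are 10 genes, taken by name for the function of their products from the 55882 gene symbols in the count files. They and the other gene lists below were chosen with earlier results of these data known. Shares over all genes set beside their counts are therefore a description only. They are fibronectin (FN1), tenascin C (TNC), periostin (POSTN), both angiogenesis-inhibiting thrombospondins (THBS1 and THBS2), the microfibril protein fibrillin 1 (FBN1), the large proteoglycan versican (VCAN) and the small leucine-rich proteoglycans biglycan (BGN), decorin (DCN) and lumican (LUM). Their mRNA was measured by poly(A) RNA-Seq in U2OS, a human osteosarcoma line, in 27 libraries. The control line, named WT in the labels, carried a blank pLKO.1 vector as they state, and MMP2sh1 and MMP2sh2 each carried a different shRNA against MMP2, the gene of the secreted protease MMP-2. All 3 lines had been transduced with lentivirus and kept in puromycin before the experiment, and the sources used here do not say whether they are single clones. Each line was collected subconfluent (day −2), confluent (day 0) and overconfluent (day +2), with 3 libraries in each of the 9 groups, described by the study as independent biological replicates. The comparisons asked how the 10 genes moved as the cells expanded and whether they differed from control where MMP2 mRNA was reduced.

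Matrix glycoproteins are secreted proteins that are laid down between cells. Fibronectin assembles into fibrils that bind integrins and collagen, fibrillin 1 forms the microfibrils on which elastic fibres are built, and tenascin C, periostin and the thrombospondins are matricellular proteins, which tune adhesion more than they bear load. Proteoglycans carry long sulfated sugar chains. Versican holds chondroitin sulfate chains and binds hyaluronan, while biglycan, decorin and lumican bind collagen fibrils and affect their assembly. Bone and its tumours make matrix of this kind, and MMP-2 is known as a protease of denatured collagen and of several matrix glycoproteins.

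The promoters of the 3 members with the highest levels per length are shown because their mRNAs moved in different ways as the cells expanded. RefSeq entries of 300 bases, 250 before the start site and 50 from it, were found for 8 of the 10 members, not for DCN and LUM. Capitals mark exact matches, on either strand, to the motifs searched. These were TATAAA (the TATA box), GGGCGG (the core bound by Sp1), TGACGTCA (a cyclic AMP response element), TGANTCA (an AP-1 site), GGAATG (a TEAD site), CCAAT (the core bound by NF-Y) and the CArG box (the site of SRF), and matches may share bases. Coordinates are on GRCh38.p14, and each sequence is written 5′ to 3′ on the strand of its gene.
FN1, chr2:215436019-215436318, minus strand: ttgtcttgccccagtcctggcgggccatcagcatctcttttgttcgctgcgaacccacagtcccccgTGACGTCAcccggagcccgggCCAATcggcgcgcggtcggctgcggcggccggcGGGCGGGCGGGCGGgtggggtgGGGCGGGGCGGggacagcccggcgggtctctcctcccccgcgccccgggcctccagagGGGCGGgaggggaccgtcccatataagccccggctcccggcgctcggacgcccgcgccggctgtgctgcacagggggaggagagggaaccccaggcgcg
THBS1, chr15:39580829-39581128, plus strand: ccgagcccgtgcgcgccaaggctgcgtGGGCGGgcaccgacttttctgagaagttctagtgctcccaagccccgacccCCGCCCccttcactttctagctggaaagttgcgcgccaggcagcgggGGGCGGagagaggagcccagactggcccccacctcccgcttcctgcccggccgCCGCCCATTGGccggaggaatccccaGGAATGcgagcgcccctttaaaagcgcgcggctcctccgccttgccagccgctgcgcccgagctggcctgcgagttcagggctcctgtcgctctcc
TNC, chr9:115118108-115118407, minus strand: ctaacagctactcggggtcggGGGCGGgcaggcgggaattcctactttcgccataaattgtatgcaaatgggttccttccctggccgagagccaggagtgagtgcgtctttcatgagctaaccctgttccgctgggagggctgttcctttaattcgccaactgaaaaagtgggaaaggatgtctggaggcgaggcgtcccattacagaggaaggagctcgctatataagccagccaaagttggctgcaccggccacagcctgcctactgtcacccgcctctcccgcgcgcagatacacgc
The FN1 promoter had 6 matches to GGGCGG, 1 to CCAAT and 1 to TGACGTCA, at positions −183 to −176 from the start site, and 5 of the GGGCGG matches share a base or more with another. The THBS1 promoter had 4 matches to GGGCGG, 1 to CCAAT and 1 to GGAATG, at positions −46 to −41. The TNC promoter had 1 match, to GGGCGG. Of the other 5 promoters, THBS2 and POSTN held TATAAA at positions −29 to −24. None of the 3 shown held these exact letters. Near forms were not searched, and FN1 and TNC hold TATAAG, so this does not show that they lack a TATA box. Over all 35116 promoters of this length searched, 45% held GGGCGG, 34.6% CCAAT, 14% GGAATG, 11.5% TATAAA, 7.71% TGANTCA, 1.85% TGACGTCA and 1.29% the CArG box. GC content was 76.7% in the FN1 promoter, 70% in that of THBS1 and 57.3% in that of TNC. A match describes these letters only and does not show that a factor binds there.

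The libraries held 33580129 to 59374327 counts on genes, with a median of 40075178. MMP2 was at 231 ± 11.8 CPM (counts scaled to the depth of the library with TMM factors; ± is the SD of 3 libraries throughout) in the control on day −2, 324 ± 6.33 on day 0 and 494 ± 10.4 on day +2. It was at 40.0 ± 6.42, 58.8 ± 6.14 and 97.7 ± 3.42 CPM in MMP2sh1, and at 144 ± 12.2, 156 ± 3.89 and 279 ± 10.8 CPM in MMP2sh2, so each shRNA line lay below control on every day. Of 7 mesenchymal and osteoblast markers, 5 had a median of at least 1 CPM, while TWIST1 had at most 2 counts and COL1A2 at most 28 in a library. Markers of leukocytes summed to 0.156 to 1.67 CPM. Epithelial markers, mostly EPCAM, summed to 6.29 to 8.31 CPM in the control at day −2 and to 3.33 to 3.86 at day +2, and 3 endothelial markers to 5.06 to 6.08 and 2.91 to 4.76. The epithelial and endothelial sums moved with the day, as several members did, and their part in the results was not tested.

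Per kilobase of canonical transcript, FN1 had the highest mean over all 27 libraries, at 192 CPM per kb. THBS1 followed at 76.2, TNC at 18.1, LUM at 10.2 and FBN1 at 3.62 CPM per kb. The other 5 were far lower, with THBS2 at 0.366, BGN at 0.228, VCAN at 0.0672, POSTN at 0.0505 and DCN at 0.0251 CPM per kb. The order of neighbours was not fixed across groups. FN1 and THBS1 were at 107 ± 9.96 and 107 ± 6.02 CPM per kb in the control at day 0, a difference within their spread. How FN1 stands to THBS1 depends on the length used. All annotated exons span 17216 bases in FN1 and 9158 in THBS1, against 8390 and 7789 in the canonical transcripts. Per kb of all exons, the means over the 27 libraries were 93.7 CPM for FN1 and 64.8 for THBS1. In MMP2sh1 THBS1 stood above FN1, at 87.8 ± 12.1 against 68.7 ± 19.5 CPM per kb on day −2, where their ranges overlapped. Within each library of that group THBS1 was the higher, at 74.0 against 46.9, 92.7 against 75.2 and 96.6 against 84.2. On day 0 THBS1 was at 124 ± 2.01 against 91.3 ± 10.1 for FN1, with no overlap of the libraries. TNC and LUM were at 14.9 ± 1.59 and 15.1 ± 0.895 CPM per kb in the control at day +2, again within their spread. The 5 scarce members rested on few reads, at 34 to 163 counts for THBS2, 8 to 61 for VCAN, 2 to 55 for BGN and 0 to 19 for both DCN and POSTN. DCN had no read in 5 libraries and POSTN in 2.

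The reads of the 10 genes changed in number and in make-up over the expansion. The control gave them 0.141% to 0.161% of all counts on genes on day −2, 0.187% to 0.215% on day 0 and 0.351% to 0.426% on day +2. FN1 gave 45.5% to 48.8% of the members' CPM there on day −2 and 86.3% to 87.5% on day +2, not adjusted for length. THBS1 gave 36.8% to 39.9% on day −2 and 6.52% to 7.43% on day +2. In all 9 libraries of day +2, over the 3 lines, FN1 gave 84.6% to 87.5%, and in none of the 18 libraries of days −2 and 0 did it give more than 51.0%.

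**Figure D1:**
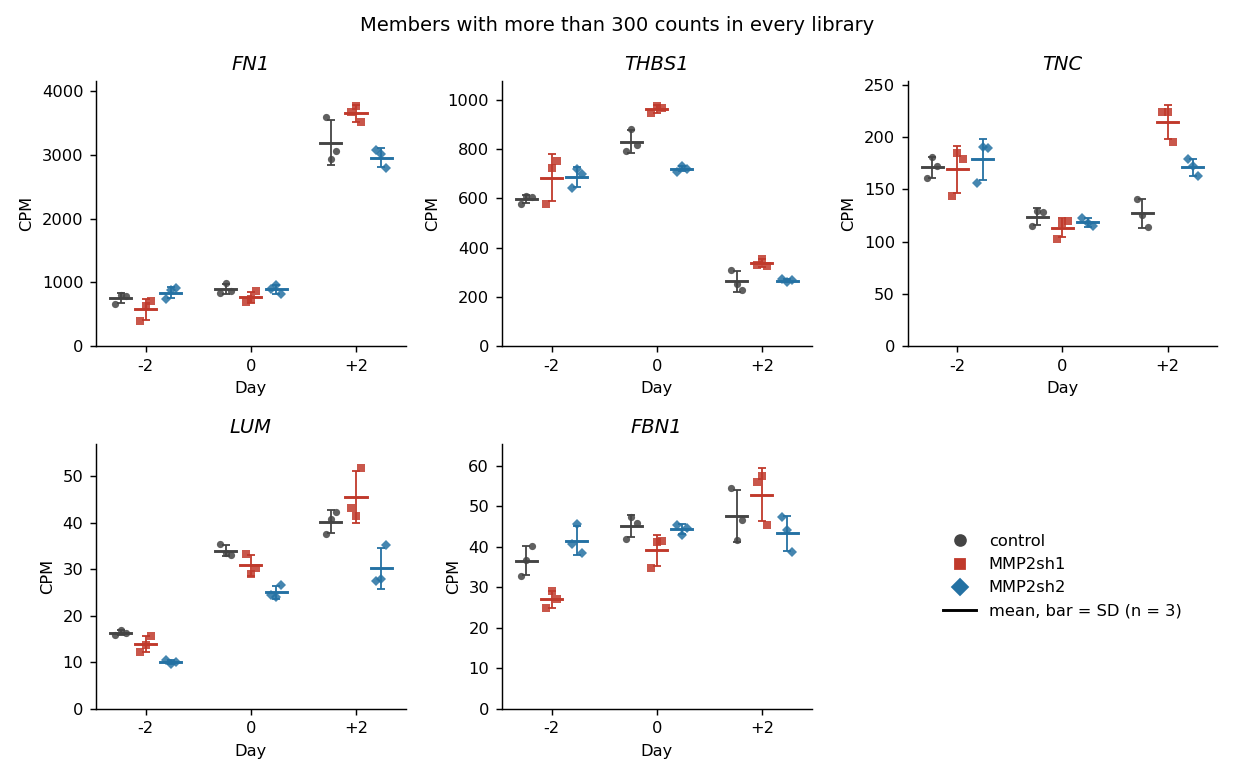
Levels in CPM (y axis) of FN1, THBS1, TNC, LUM and FBN1 on each day (x axis) in control (grey circles), MMP2sh1 (red squares) and MMP2sh2 (blue diamonds); points are libraries, horizontal lines are means and bars are SD of 3 libraries. FN1 and THBS1 part at day +2 in every line, TNC at day +2 lies higher in both shRNA lines than in control, and LUM lies lowest in MMP2sh2 on each day.

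In the control, fibronectin and lumican mRNA rose and thrombospondin 1 mRNA fell as the cells passed confluence. From day −2 to day +2, FN1 rose 4.20-fold and LUM 2.43-fold, THBS1 fell to 0.434 of its level, and TNC fell to 0.733. Of the 10 members, 6 were called higher (FN1, THBS2, FBN1, VCAN, BGN and LUM), 2 were called lower (TNC and THBS1), and DCN and POSTN had too few reads to be tested. Called means an adjusted p under 0.05 from edgeR's quasi-likelihood test over all genes tested, of which 28.1% were called higher and 28.6% lower in this comparison. BGN passed the filter on low counts through day +2 alone, where it is high, so it adds no support, and 5 of the 6 remain without it. In bulk RNA, fewer cells that express a gene and less of its RNA per cell cannot be told apart.

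FN1 lies on chromosome 2 of GRCh37 (chr2:216225163-216300796, minus strand), with 46 exons in its canonical transcript. Its 3 control libraries had 657, 806 and 793 CPM when subconfluent, 826, 988 and 872 when confluent and 3597, 2931 and 3056 when overconfluent. The groups did not overlap, and the larger step came after confluence. The log2 fold change was 0.25 (standard error 0.06, adjusted p = 0.00174) from day −2 to day 0, 1.84 (0.06, adjusted p = 5.34e-21) from day 0 to day +2, and 2.07 (0.07, adjusted p = 3.01e-19) over both steps. The first, small step lost its call with DESeq2 (adjusted p = 0.118) and in a fit of all 27 libraries (0.0774), and the larger ones kept theirs under every alternative.

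THBS1, whose product binds CD36 and CD47 and can activate latent TGF-β, lies on chromosome 15 (chr15:39873280-39891667, plus strand, 22 exons). Control libraries had 577, 607 and 607 CPM on day −2, 792, 882 and 815 on day 0 and 308, 252 and 228 on day +2. It thus peaked at confluence, with all 3 libraries of day 0 above and all 3 of day +2 below those of day −2. The log2 fold change was 0.48 (standard error 0.04, adjusted p = 1.73e-09) in the first step, −1.66 (0.07, adjusted p = 9.33e-19) in the second and −1.20 (0.07, adjusted p = 1.72e-14) over both. FSIP1, on the opposite strand, shares 448 bases of exon with THBS1 in the annotation used here, as VCAN-AS1 does 453 with VCAN. FSIP1 and VCAN-AS1 were themselves counted, so HTSeq's union mode sets reads over shared exons aside as ambiguous. Other genes on the opposite strand are not among the symbols counted. THBS2-AS1 shares 2249 bases with THBS2, THBS1-AS1 shares 411 with THBS1 and DELEC1 shares 129 with TNC. Since reads were counted without strand, those of these genes cannot be told apart from the member's there.

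TNC (chr9:117781854-117880486, minus strand, 28 exons) fell at the first step, and its second step was not called. Its control libraries had 160, 181 and 172 CPM on day −2, 115, 129 and 128 on day 0 and 141, 125 and 114 on day +2. Every library of day −2 lay above every later one, and the groups of day 0 and day +2 overlapped. The log2 fold change was −0.46 (standard error 0.05, adjusted p = 7.16e-08) from day −2 to day 0, 0.04 (95% confidence interval −0.09 to 0.16, adjusted p = 0.664) from day 0 to day +2, and −0.45 (0.06, adjusted p = 4.35e-07) over both.

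LUM (chr12:91496406-91505271, minus strand, 3 exons), a keratan sulfate proteoglycan of collagen fibrils, more than doubled before confluence and rose little after it. It had 15.9, 16.9 and 16.3 CPM in the control on day −2, 35.4, 33.4 and 33.1 on day 0 and 37.6, 40.8 and 42.3 on day +2. No groups overlapped. The log2 fold change was 1.06 (standard error 0.08, adjusted p = 1.65e-11) in the first step and 0.25 (0.07, adjusted p = 0.00394) in the second. FBN1 (chr15:48700510-48937918, minus strand, 66 exons), mutated in Marfan syndrome, had 32.9, 36.8 and 40.2 CPM on day −2, 42.0, 47.3 and 45.8 on day 0 and 54.6, 41.7 and 46.5 on day +2. The first group lay below both later ones, which overlapped. Its rise of 0.30 (standard error 0.07, adjusted p = 0.00164) came in the first step, and the second step, 0.08 (95% confidence interval −0.07 to 0.24), was not called. Over all genes tested, 16.4% were called higher and 19.1% lower from day −2 to day 0, where 6 members were called higher (FN1, THBS1, FBN1, BGN, DCN and LUM) and 1 lower (TNC). BGN and DCN passed the filter on low counts through day 0 alone, which leaves 4 higher without them. From day 0 to day +2, 21.3% of all genes were called higher and 20.1% lower, against 3 members higher (FN1, THBS2 and LUM) and 1 lower (THBS1).

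The scarce members mostly had more reads at day +2. THBS2 (chr6:169615875-169654145) had 114, 63 and 59 counts in the control libraries of day −2, 93, 105 and 55 on day 0 and 154, 109 and 110 on day +2, with a log2 fold change of 0.90 (standard error 0.25, adjusted p = 0.00359) over both steps. VCAN (chr5:82767437-82878122) had 37, 25 and 16 counts, then 53, 56 and 43, then 59, 48 and 40, with a log2 fold change of 1.15 (0.41, adjusted p = 0.0177). Its first step was 0.99 (adjusted p = 0.0571), called where each library had to hold at least 10 counts (adjusted p = 0.0235). Both calls over the whole expansion rested on 1 library, since without control replicate 1 of day +2 they were 0.62 (adjusted p = 0.0615) for THBS2 and 0.91 (adjusted p = 0.112) for VCAN. The call of THBS2 from day 0 to day +2 (0.80, 0.26, adjusted p = 0.0127) was lost without that library (0.53, adjusted p = 0.155) and without control replicate 3 of day 0 (0.61, adjusted p = 0.0739). BGN (chrX:152760438-152775004) had 13, 8 and 2 counts on day −2, 45, 13 and 22 on day 0 and 36, 52 and 52 on day +2. Its log2 fold change was 2.83 (0.53, adjusted p = 5.67e-05), which rests on 23 reads in all on day −2 and on a filter that the gene passed through day +2 alone. From day 0 to day +2 it was 1.01 (adjusted p = 0.0674), called with the filter of 10 counts named for VCAN (adjusted p = 0.0296) and without control replicate 1 of day 0 (1.57, adjusted p = 0.0138).

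DCN (chr12:91534261-91576994), the neighbour of LUM on chromosome 12, had 0, 6 and 0 counts in the control on day −2, 19, 13 and 15 on day 0 and 2, 18 and 8 on day +2. It was called higher on day 0 than on day −2 (log2 fold change 2.87, standard error 0.91, adjusted p = 0.0149), which was lost in the fit of all libraries (adjusted p = 0.0611) and when any 1 of 4 of the 6 libraries was left out. These were control replicates 1 and 3 of day −2 and of day 0 (adjusted p = 0.0531 to 0.12), with values down to 2.18. Without control replicate 2 of day −2, the only library of that day with a read, the fitted value was 7.0, which is set against a group with no read and is no estimate of size. BGN at day 0 (1.85, adjusted p = 0.0258) was lost without control replicate 2 or 3 of day −2, or without replicate 1 or 3 of day 0 (adjusted p = 0.0549 to 0.253). POSTN (chr13:38136720-38172981), a bone and periosteum protein, had 11, 1 and 0 counts, then 6, 8 and 6, then 7, 13 and 16, and was not tested in the control.

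**Figure D2:**
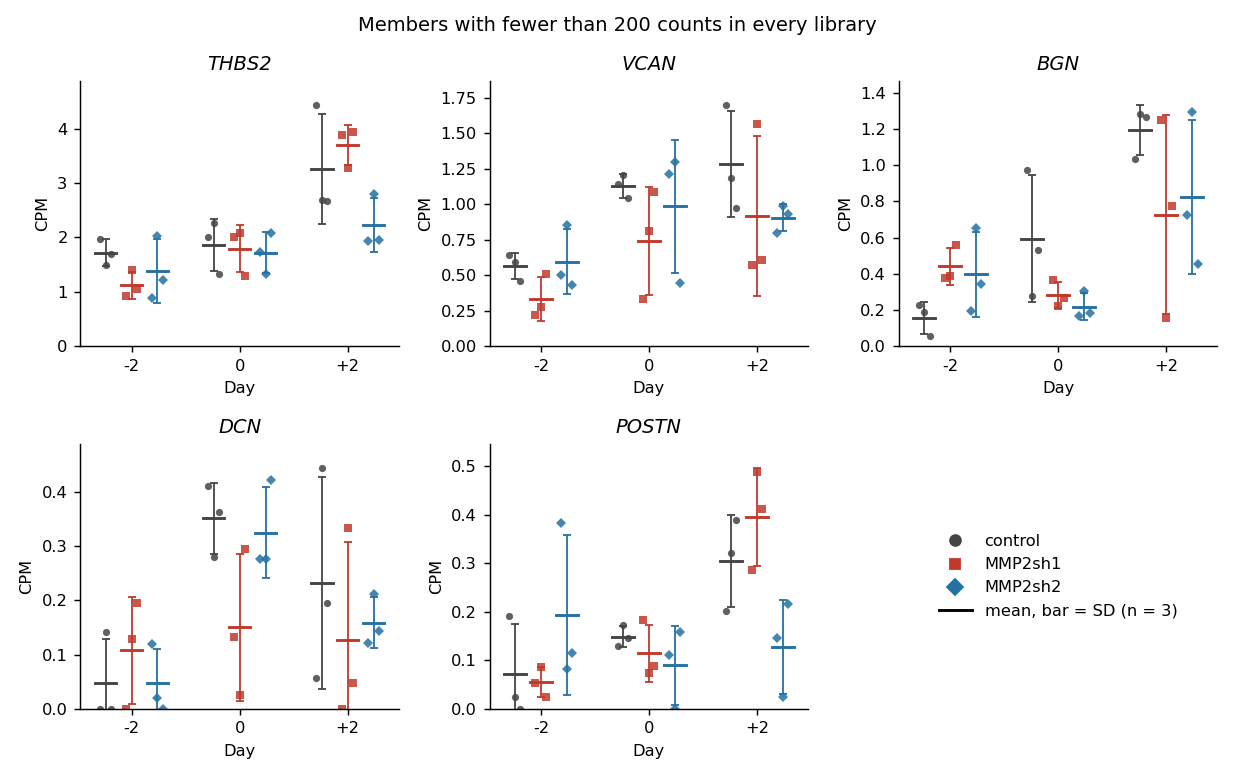
Levels in CPM (y axis) of THBS2, VCAN, BGN, DCN and POSTN on each day (x axis) in the 3 lines; points are libraries, lines are means and bars, cut at 0, are SD of 3 libraries. The points of a group spread widely, and none of these genes had more than 163 counts in a library.

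The shRNA lines passed through the same expansion, and FN1, THBS1 and LUM moved in the control's direction in both. FN1 in MMP2sh1 went from 393, 631 and 706 CPM on day −2 to 3678, 3767 and 3512 on day +2, and in MMP2sh2 from 738, 876 and 907 to 3074, 3008 and 2787. Its log2 fold change was 2.64 in MMP2sh1 (standard error 0.13, adjusted p = 1.8e-14) and 1.82 in MMP2sh2 (0.06, adjusted p = 1.11e-21). THBS1 fell by 1.04 on the log2 scale (0.08, adjusted p = 4.5e-11) in MMP2sh1 and by 1.36 (0.06, adjusted p = 2.01e-19) in MMP2sh2. LUM rose by 1.69 (0.10, adjusted p = 1.38e-12) and 1.58 (0.10, adjusted p = 3.01e-14).

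In MMP2sh1, 7 members were called higher at day +2 than at day −2 (FN1, TNC, POSTN, THBS2, FBN1, VCAN and LUM) and 1 lower (THBS1), where 27.3% of all genes were called higher and 27.7% lower. POSTN passed the filter on low counts through day +2 alone, and 6 of the 7 remain without it. In MMP2sh2, 2 were called higher (FN1 and LUM) and 1 lower (THBS1), against 27.7% and 27.1% of all genes. THBS2 rose by 1.70 (standard error 0.27, adjusted p = 8.7e-06) in MMP2sh1, from 34, 65 and 43 counts to 149, 128 and 163. In MMP2sh2 it went from 37, 100 and 42 to 80, 119 and 82, a log2 fold change of 0.69 (95% confidence interval 0.05 to 1.33, adjusted p = 0.0634), called with at least 10 counts in every library (adjusted p = 0.0456) and in the fit of all libraries (0.0416). FBN1 rose by 0.95 (0.09, adjusted p = 6.22e-09) in MMP2sh1 and had a log2 fold change of 0.07 (95% confidence interval −0.10 to 0.24) in MMP2sh2. POSTN in MMP2sh1 had 2, 4 and 1 counts at day −2 and 11, 19 and 17 at day +2, with a log2 fold change of 2.75 (0.78, adjusted p = 0.00459).

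VCAN in MMP2sh1 had 8, 13 and 21 counts and then 22, 61 and 25, with a log2 fold change of 1.42 (standard error 0.56, adjusted p = 0.0352). It was lost with DESeq2 (adjusted p = 0.0581) and without MMP2sh1 replicate 1 or 2 of day −2 or replicate 2 of day +2 (adjusted p = 0.0993 to 0.374, log2 fold change 0.78 without the last). In MMP2sh2 VCAN had 21, 42 and 15 counts and then 33, 42 and 39, and was not called (adjusted p = 0.296). BGN was not called in either shRNA line, at 0.70 (95% confidence interval −0.54 to 1.93) in MMP2sh1 and 1.04 (−0.09 to 2.17) in MMP2sh2. Leaving out MMP2sh2 replicate 2 of day −2 brought in calls of THBS2 (1.10, adjusted p = 0.00808) and BGN (1.63, adjusted p = 0.0425), and leaving out replicate 1 of that day one of TNC (−0.16, adjusted p = 0.0493).

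**Figure D3:**
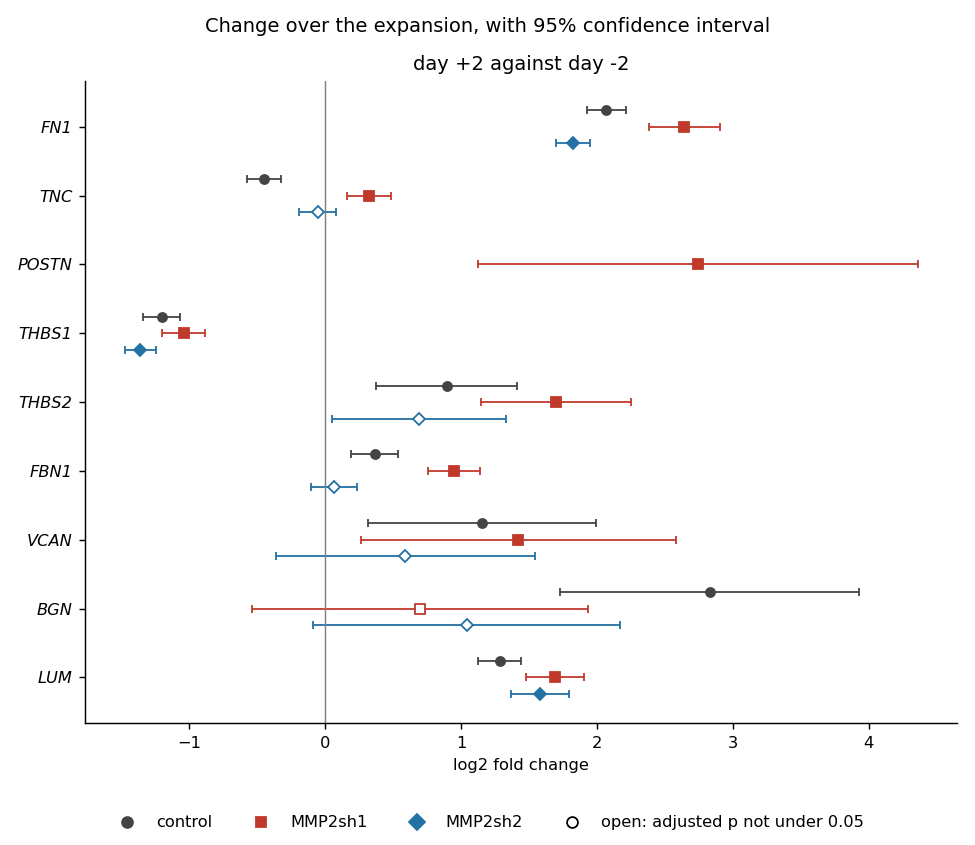
Log2 fold change from day −2 to day +2 (x axis) of each member tested (y axis) in control (grey circles), MMP2sh1 (red squares) and MMP2sh2 (blue diamonds), with 95% confidence intervals; filled symbols have an adjusted p under 0.05. FN1 and LUM lie right of 0 and THBS1 left of 0 in all 3 lines, TNC lies on both sides, POSTN was tested in MMP2sh1 only, and DCN, tested in none, is not drawn.

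Tenascin C was the member whose course differed from control in both shRNA lines. From day 0 to day +2, where TNC was not called in the control, its mean went from 113 ± 9.18 to 214 ± 16.3 CPM in MMP2sh1 and from 118 ± 4.10 to 171 ± 8.22 in MMP2sh2. The day +2 libraries had 195 to 224 CPM in MMP2sh1 and 179, 172 and 163 in MMP2sh2, all above the control's 114 to 141. TNC was 1.69-fold higher in MMP2sh1 (log2 fold change 0.76, standard error 0.07, adjusted p = 1.02e-09) and 1.36-fold higher in MMP2sh2 (0.44, 0.06, adjusted p = 1.67e-06), and it was lower in MMP2sh2 than in MMP2sh1 (−0.32, 0.06, adjusted p = 0.00152). These 3 calls held under every alternative. From day −2 to day +2, TNC rose by 0.32 in MMP2sh1 (0.08, adjusted p = 0.00133), from a range of 144 to 185 CPM, and its log2 fold change was −0.05 in MMP2sh2 (95% confidence interval −0.19 to 0.08). On days −2 and 0 TNC was called in neither line, with log2 fold changes from −0.13 to 0.04. Without control replicate 1 of day 0, though, the −0.13 of MMP2sh1 became −0.18 (adjusted p = 0.0376). It was also called with the replicate number as a block (−0.13, adjusted p = 0.0372). Each day's 3 control libraries served for both shRNA lines, so the differences of these lines from control are not independent of each other.

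The interaction tests whether a line's change from day −2 to day +2 differs from the control's. For TNC it was 0.78 (standard error 0.11, adjusted p = 1.9e-05) in MMP2sh1 and 0.39 (0.10, adjusted p = 0.0117) in MMP2sh2. In MMP2sh1, 4 members were called higher in this test (FN1, TNC, FBN1 and LUM) and none lower, where 4.52% of all genes were called higher and 2.88% lower. In MMP2sh2, TNC was the 1 member called higher and none was called lower, against 2.71% and 2.28% of all genes. FN1 in MMP2sh1 had an interaction of 0.58 (0.16, adjusted p = 0.0225), FBN1 of 0.59 (0.14, adjusted p = 0.00555) and LUM of 0.42 (0.13, adjusted p = 0.0473). FN1 was lost with DESeq2 (adjusted p = 0.175), and FN1, FBN1 and LUM without the libraries of replicate 2 (adjusted p = 0.229, 0.132 and 0.195). LUM was also lost without those of replicate 1 or 3 (adjusted p = 0.143 and 0.1) and with median-of-ratios scaling (0.0531). The interaction of TNC in MMP2sh2 kept its size without replicate 2 (0.39) but not its call (adjusted p = 0.0928).

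Lumican was lower in MMP2sh2 than in control on all 3 days. The MMP2sh2 libraries had 10.6, 9.62 and 10.1 CPM of it on day −2, 24.5, 24.0 and 26.6 on day 0 and 27.5, 27.8 and 35.2 on day +2. On no day did they overlap with the control. LUM was at 0.609, 0.735 and 0.752 of the control level on the 3 days (log2 fold changes −0.71, −0.44 and −0.41, standard errors 0.10, 0.07 and 0.08, adjusted p = 7.04e-05, 5.4e-05 and 0.000566), and each call held under every alternative. MMP2sh1 had 12.1, 13.8 and 15.6 CPM, then 33.2, 28.9 and 30.3, then 43.2, 41.3 and 51.8. There LUM was called on no day, at log2 fold changes against control of −0.24, −0.14 and 0.18 (adjusted p = 0.152, 0.197 and 0.146). It was lower in MMP2sh2 than in MMP2sh1 on each day, with log2 fold changes of −0.47, −0.31 and −0.58 (adjusted p = 0.0108, 0.00331 and 0.000145). The first of these was lost without MMP2sh1 replicate 3 (adjusted p = 0.068) or MMP2sh2 replicate 2 (0.0595) of day −2, and the second without MMP2sh1 replicate 1 of day 0 (0.0543).

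Fibronectin and fibrillin 1 differed from control in MMP2sh1 and were called on no day in MMP2sh2. At day −2, MMP2sh1 was lower in both, with FN1 at 0.766 of control (log2 fold change −0.39, standard error 0.12, adjusted p = 0.0307) and FBN1 at 0.739 (−0.44, 0.09, adjusted p = 0.00125). The FN1 value leaned on MMP2sh1 replicate 1, at 393 CPM against 631 and 706 in the other libraries. Replicate 1 of that day was also the lowest in control (657 CPM against 806 and 793) and in MMP2sh2 (738 against 876 and 907). Without MMP2sh1 replicate 1 the log2 fold change was −0.18 (adjusted p = 0.084). FN1 was also lost with DESeq2 (adjusted p = 0.347) and without MMP2sh1 replicate 2 or control replicate 2 or 3 (adjusted p = 0.065 to 0.146). FBN1 at day −2, at 24.9, 29.2 and 27.1 CPM in MMP2sh1, lay below all control libraries and held under every alternative.

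At day 0, MMP2sh1 was again lower in FN1 (−0.23, standard error 0.05, adjusted p = 0.00262) and FBN1 (−0.21, 0.07, adjusted p = 0.0367). Neither call held with DESeq2 (adjusted p = 0.217 and 0.0601) or in the fit of all libraries (0.2 and 0.176). Without MMP2sh1 replicate 1 of day 0 the values were −0.16 (adjusted p = 0.0639) for FN1 and −0.12 (0.311) for FBN1, and FBN1 was lost too without MMP2sh1 replicate 2 (0.0512) or control replicate 2 (0.152) or 3 (0.099). At day +2, FN1 was 1.14-fold higher in MMP2sh1 than in control (0.19, standard error 0.05, adjusted p = 0.0127), with overlapping libraries. That call was lost in the fit of all libraries (adjusted p = 0.258) and without control replicate 2 (0.146) or 3 (0.0983) or MMP2sh1 replicate 2 (0.072). In MMP2sh2, the log2 fold changes of FN1 against control were 0.14 (95% confidence interval −0.00 to 0.28), −0.01 (−0.11 to 0.08) and −0.11 (−0.21 to −0.00) on the 3 days, and those of FBN1 0.17, −0.03 and −0.13. Without MMP2sh2 replicate 1 of day −2, FN1 on that day was called (0.22, adjusted p = 0.0406). FBN1 in MMP2sh1 on day +2 was not called (0.15, adjusted p = 0.267), but was without MMP2sh1 replicate 3 (0.26, adjusted p = 0.0479).

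Thrombospondin 1 differed from control in opposite directions in the shRNA lines at day 0. Its libraries then had 945, 976 and 966 CPM in MMP2sh1, all above the control's 792 to 882, and 709, 729 and 720 in MMP2sh2, all below it. Against control the log2 fold change was 0.21 in MMP2sh1 (standard error 0.04, adjusted p = 7.23e-05) and −0.21 in MMP2sh2 (0.04, adjusted p = 0.000196), and MMP2sh2 was lower than MMP2sh1 (−0.43, 0.03, adjusted p = 1.11e-12). The value of MMP2sh2 was lost in the fit of all libraries (adjusted p = 0.0645). At day −2, THBS1 was higher in MMP2sh2 (0.18, 0.05, adjusted p = 0.0242), a call lost in the same fit (0.0719) and without control replicate 1 or 2 or MMP2sh2 replicate 2 (adjusted p = 0.0687 to 0.162). In MMP2sh1 at day −2 it had a log2 fold change of 0.19 (adjusted p = 0.0689), which was called with no filter on low counts (adjusted p = 0.0121) and without MMP2sh1 replicate 1 (0.30, adjusted p = 0.0001). At day +2 it had 329, 355 and 326 CPM in MMP2sh1, above every control library (0.36, 0.07, adjusted p = 0.000419, with DESeq2 0.0515). In MMP2sh2 it had 271, 260 and 268 CPM, within the control's range (0.03, 95% confidence interval −0.10 to 0.16).

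Set against the background of each comparison, the members' counts were as follows. Against control, MMP2sh1 had 0 members higher and 2 lower (FN1 and FBN1) at day −2, where 5.42% of all genes were called higher and 6.14% lower. At day 0 it had 1 higher (THBS1) and 2 lower (FN1 and FBN1), against 8.26% and 8.58% of all genes, and at day +2 it had 3 higher (FN1, TNC and THBS1) and 0 lower, against 7.68% and 7.11%. MMP2sh2 had 1 higher (THBS1) and 1 lower (LUM) at day −2, where 4.71% and 6.33% of all genes were called. It had 0 higher and 2 lower (THBS1 and LUM) at day 0, against 7.07% and 5.81%, and 1 higher (TNC) and 1 lower (LUM) at day +2, against 2.89% and 3.43%. Where the 5 scarce members could be tested against control, none was called in either line on any day. Their intervals were wide at this depth, as for BGN on day −2 in MMP2sh1 (1.42, 95% confidence interval 0.03 to 2.81, adjusted p = 0.192) and THBS2 on day +2 in MMP2sh2 (−0.54, −1.01 to −0.06, adjusted p = 0.208). BGN passed the filter on low counts there through MMP2sh1 alone, where it is high, so its value adds no support for a difference.

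**Figure D4:**
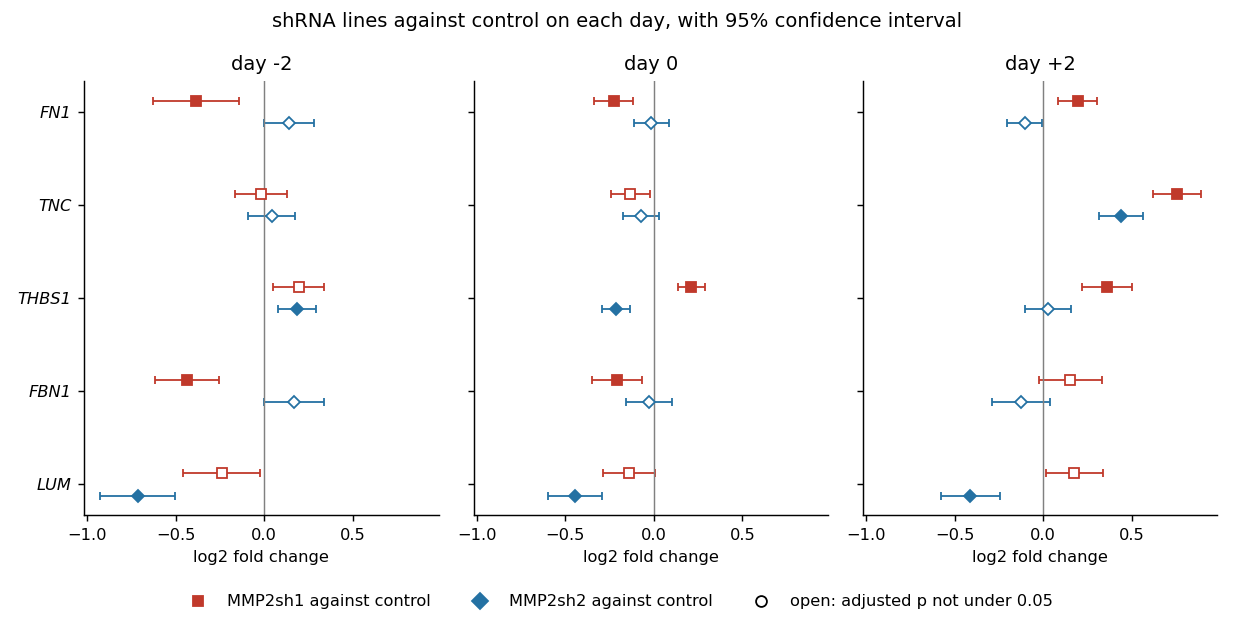
Log2 fold change against control (x axis) of the 5 members with the most reads (y axis) in MMP2sh1 (red squares) and MMP2sh2 (blue diamonds) at days −2, 0 and +2, with 95% confidence intervals; filled symbols have an adjusted p under 0.05. TNC lies right of 0 in both lines at day +2, LUM lies left of 0 in MMP2sh2 on each day, and THBS1 at day 0 lies on opposite sides; both lines share the control libraries of each day.

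Compared directly, MMP2sh2 was higher than MMP2sh1 in FN1 (0.53, standard error 0.11, adjusted p = 0.00227) and FBN1 (0.61, 0.09, adjusted p = 2.47e-05) and lower in LUM at day −2, where 5.69% of all genes were called higher and 5.01% lower. At day 0 it was higher in FN1 (0.21, 0.05, adjusted p = 0.00198) and lower in THBS1 and LUM, against 9.62% and 8.9% of all genes. At day +2 it was higher in none and lower in 5 members (FN1, TNC, THBS1, THBS2 and LUM), against 3.27% and 4.59% of all genes. FN1 at day +2 was at 2787 to 3074 CPM in MMP2sh2 and at 3512 to 3767 in MMP2sh1 (−0.30, 0.04, adjusted p = 5.15e-05), so its order between the lines at day −2 was turned round. With DESeq2 the FN1 calls of days −2 and 0 were lost (adjusted p = 0.151 and 0.206), and in the fit of all libraries those of days 0 and +2 (0.196 and 0.0729). FBN1 was not called on days 0 (0.18, adjusted p = 0.0679) and +2 (−0.28, adjusted p = 0.0525). It was called without MMP2sh1 replicate 3 on both (0.23, adjusted p = 0.038, and −0.38, adjusted p = 0.00572), and on day +2 without MMP2sh2 replicate 1 (−0.35, adjusted p = 0.0419) and with both other filters on low counts. THBS2 at day +2 (−0.72, 0.22, adjusted p = 0.0399) was lost without any one of 5 of its 6 libraries, all but MMP2sh2 replicate 2 (adjusted p = 0.0579 to 0.157), and in the fit of all libraries (0.0979).

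Among 43 other matrix glycoproteins, 36 could be tested in the control from day −2 to day +2, and 23 rose, 6 fell and 7 were not called, with a median log2 fold change of 0.56 against 0.03 over all genes tested, of which 28.1% were called higher and 28.6% lower. MGP, an inhibitor of mineral deposition, went from 0.0714 ± 0.104 to 7.39 ± 0.492 CPM, and CTHRC1, a secreted collagen triple helix repeat protein, from 0.640 ± 0.0933 to 11.9 ± 1.54 CPM. SVEP1, an adhesion protein, went from 0.0407 ± 0.0209 to 0.517 ± 0.0306 CPM. MGP and SVEP1, like ITGA8 and CHST15 further on, passed the filter on low counts through day +2 alone, so their calls add no support. The counts given for the lists still hold these genes. Unnamed genes of the lists, and those behind the shares over all genes, were not checked for this. Among 24 other proteoglycans and link proteins, 16 were tested, and 7 rose, 5 fell and 4 were not called (median −0.09). HAPLN2, which ties proteoglycans to hyaluronan, went from 0.507 ± 0.0258 to 7.92 ± 0.671 CPM, EPYC, of the same leucine-rich family as LUM, from 0.208 ± 0.180 to 1.10 ± 0.193, and PODNL1, of the leucine-rich family of BGN, DCN and LUM, rose 3.97-fold to 59.8 ± 2.33 CPM.

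Versican and the link proteins bind hyaluronan, and of its 3 synthases HAS2 moved most. HAS2 rose in the control from 4.08 ± 0.256 CPM through 26.1 ± 3.12 on day 0 to 76.0 ± 3.41, a log2 fold change of 4.20 over both steps (standard error 0.08, adjusted p = 7.07e-24). At day 0 it was lower than control in both shRNA lines, at 14.2 ± 2.13 CPM in MMP2sh1 (−0.89, 0.10, adjusted p = 3.1e-08) and 14.0 ± 1.26 in MMP2sh2 (−0.90, 0.09, adjusted p = 8.76e-09), and at day +2 it was lower in MMP2sh2 (−0.48, 0.07, adjusted p = 1.29e-06) and not called in MMP2sh1 (−0.12, adjusted p = 0.243). HAS3 was at 1.67 ± 0.297 and 2.05 ± 0.308 CPM at days −2 and +2 in the control and was called in no comparison. HAS1 stayed at or below 0.270 CPM on average in every group.

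Of 14 receptors of the members, 6 rose and 7 fell in the control from day −2 to day +2 (median −0.13), set against the same 28.1% and 28.6% of all genes. ITGB3, a subunit of a fibronectin and thrombospondin receptor, went from 8.13 ± 0.668 to 38.5 ± 3.10 CPM, ITGA8, a subunit of a fibronectin and tenascin receptor, from 0.0315 ± 0.0546 to 3.20 ± 0.451, and ITGA4, a subunit of another fibronectin receptor, fell from 12.5 ± 0.500 to 3.31 ± 0.254 CPM. At day +2, ITGB3 was 1.95-fold higher in MMP2sh1 than in control (log2 fold change 0.97, standard error 0.07, adjusted p = 1.66e-11), CD36, a receptor of thrombospondin 1, was lower in MMP2sh1 (−1.69, 0.51, adjusted p = 0.0214, at 0.283 ± 0.134 CPM), ITGA8 was lower in MMP2sh2 (−1.74, 0.30, adjusted p = 7.03e-05) and CD44, a hyaluronan receptor, was higher there (0.22, 0.06, adjusted p = 0.0114). Of 19 genes of chondroitin and dermatan sulfate synthesis, 5 rose, 4 fell and 10 were not called over the control's expansion (median 0.05), both smaller shares of the list than of all genes. CHST15, which sulfates the chain, went from 0.0404 ± 0.0700 to 0.667 ± 0.0568 CPM. CSGALNACT1, which starts the chain, rose by 2.35 (0.19, adjusted p = 4.03e-11), and XYLT1, which adds the first sugar to the core protein, fell by 1.26 (0.09, adjusted p = 6.42e-12).

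At day +2, 37 of the other matrix glycoproteins were tested in MMP2sh1 against control, and 8 were higher, 6 lower and 23 not called (median 0.07), where 7.68% of all genes were called higher and 7.11% lower. SRPX was at 165 ± 5.20 CPM against 81.6 ± 2.96 in control, and SMOC1, a calcium-binding matricellular protein, at 231 ± 8.46 against 119 ± 18.4. In MMP2sh2, 36 were tested, and 3 were higher, 4 lower and 29 not called (median −0.05), against 2.89% and 3.43% of all genes. MFAP5, a microfibril protein that binds fibrillin, was at 5.93 ± 0.934 against 2.60 ± 0.429 CPM, and TGFBI, a relative of periostin, at 87.3 ± 6.71 against 45.2 ± 4.31. Of the other proteoglycans, 4 of 17 were higher and 1 lower in MMP2sh1, and 3 of 16 higher and 0 lower in MMP2sh2. BCAN, a proteoglycan of the versican family, was at 13.3 ± 1.06 CPM in MMP2sh1, 9.37 ± 1.56 in MMP2sh2 and 6.52 ± 0.439 in control. PODNL1 was lower in MMP2sh1 (−0.75, 0.07, adjusted p = 5.69e-09), and SPOCK1, a testican, was higher in MMP2sh2 (0.47, 0.08, adjusted p = 2.03e-05). The receptors had 5 higher and 1 lower of 14 in MMP2sh1 and 1 higher and 1 lower of 14 in MMP2sh2, and the chondroitin and dermatan sulfate genes 2 higher and 3 lower of 19, and 1 and 1 of 19. Those with the largest changes were CHPF2 (0.42, adjusted p = 0.00387) and CHST11 (−0.39, adjusted p = 0.0179) in MMP2sh1, and CSGALNACT1 (0.55, adjusted p = 0.000712) and CHSY1 (−0.22, adjusted p = 0.0314) in MMP2sh2. Medians over all genes tested were −0.00 in both comparisons.

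Over the 27 libraries, the log2 CPM of the members followed each other unevenly. Pearson's r was −0.88 between FN1 and THBS1, 0.79 between FN1 and THBS2, 0.68 between FN1 and LUM and 0.30 between FN1 and TNC. Among 22106 genes, those most like FN1 were DRAXIN (r = 0.991), PXDN (0.988) and CLSTN3 (0.987), and those most like THBS1 were ABLIM1 and ACACA (both 0.971) and MYO19 (0.967). For LUM they were CEP57 (0.954), UFL1 (0.953) and ZNF608 (0.952), for TNC SLC1A5 (0.913), PLXNA1 (0.892) and BCL9L (0.879), and for FBN1 COL5A2 (0.85), MC1R (0.842) and SETD5 (0.841). The highest r was 0.863 for THBS2, 0.85 for BGN, 0.8 for VCAN, 0.746 for POSTN and 0.725 for DCN, on few reads. The libraries share 3 days and 3 lines, so these values describe differences between days and between lines together and are given with no test.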

How the data were processed

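The authors used Trim Galore 0.6.0 to trim paired-end reads of poly(A) RNA, STAR 2.7.3a for alignment to hg19, and HTSeq 2.0.0 to count exon reads per gene, without strand, in union mode and with a minimum alignment quality of 10. The deposited values are raw read counts for 55882 gene symbols, not normalized, and 5 HTSeq summary lines, 16.77% to 19.1% of the counted total, were left out. Depth was 33580129 to 59374327 counts on genes. Samples were grouped by their labels.

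Each comparison was fitted on its own 6 libraries, and each interaction on 12, with edgeR 4.0.16 in R 4.3.3, using TMM scaling, a filter by filterByExpr (minimum count 10, minimum total 15) and its quasi-likelihood test, with Benjamini-Hochberg adjusted p-values over all genes tested. Every adjusted p is from this test unless DESeq2 is named. The standard error is the size of the log2 fold change divided by the square root of F. CPM use TMM factors of all 27 libraries. Lengths and GRCh37 positions are from a GENCODE annotation, whose canonical transcripts may not be the ones these cells use. The alternatives were DESeq2 1.42.0, median-of-ratios scaling, no filter, at least 10 counts in every library, 1 fit of all 27 libraries, the replicate number as a block and each library left out in turn. The fits were tested on simulated data. The p-values measure the spread between cultures of single lines, not between independently made lines.

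The members and the gene lists were chosen with earlier results of these data known. All 10 members are named, and MMP2 as the targeted gene. Of each other list, up to 3 called genes with the largest changes are named for the control's expansion and up to 2 for each shRNA line against control on day +2, along with all 3 hyaluronan synthases and the 3 genes most correlated with each well-read member.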

Additional observations from a re-analysis of the deposited data

Results flagged for a closer look

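In 5 tests the change of a member from day −2 to day +2 in an shRNA line differed from its change in the control (edgeR's interaction test). In MMP2sh1 the difference was 0.78 on the log2 scale for TNC, 0.59 for FBN1, 0.58 for FN1 and 0.42 for LUM. In MMP2sh2 it was 0.39 for TNC. TNC fell by 0.45 on the log2 scale in the control, rose by 0.32 in MMP2sh1 and had a log2 fold change of −0.05 in MMP2sh2, which was not called. The control libraries are shared by both tests of TNC.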

How the results depend on the processing

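Of 136 tested results of the members, 60 were called, and 36 of these stayed called under every alternative that gave a value. Of the 24 lost under at least 1, 8 were lost only when a library or replicate number was left out. None of 700 alternative values of called results turned its sign, and 45 of 836 of uncalled results did. In the MMP2sh1 comparison with control on day −2, the count of members called higher was 1 in place of 0 with no filter and with the replicate block, and the count called lower was 1 in place of 2 with DESeq2. On day 0 in MMP2sh1, 0 in place of 2 were called lower with DESeq2 and with 1 fit of all 27 libraries. With that fit, MMP2sh2 against control had 0 in place of 1 called higher on day −2 and 1 in place of 2 called lower on day 0, and MMP2sh2 against MMP2sh1 had 3 in place of 5 called lower on day +2. Between the shRNA lines, 1 in place of 2 were called higher on day −2 with DESeq2, and 0 in place of 1 on day 0 with DESeq2 and with 1 fit of all libraries. With no filter, the interaction of MMP2sh2 had 1 in place of 0 called lower (FN1, −0.25, adjusted p = 0.0105). The cause of these changes was not tested.

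Leaving out libraries gave 2 to 4 members called higher and 1 to 2 lower in MMP2sh2 from day −2 to day +2. Against control, it gave 0 to 1 higher and 1 to 2 lower for MMP2sh1 on day −2, 0 to 3 lower for MMP2sh1 on day 0 and 0 to 2 higher for MMP2sh2 on day −2. Between the shRNA lines it gave 0 to 1 lower on day −2, and 1 to 2 higher and 1 to 2 lower on day 0. The interactions had 1 to 3 higher in MMP2sh1 and 0 to 1 in MMP2sh2. Over all genes, the calls behind the background shares fell in the same way by over 1.5 times in 8 comparisons. At the lowest they went from 1520 to 430 and from 1029 to 446 in the interactions of MMP2sh1 and MMP2sh2. Against control they went from 2184 to 1321 for MMP2sh1 on day −2, and from 2080 to 728, 2456 to 1509 and 1222 to 679 for MMP2sh2 on days −2, 0 and +2. Between the shRNA lines they went from 2009 to 1208 on day −2 and from 1527 to 885 on day +2. Fits without 1 library hold fewer samples.

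Whether replicate numbers pair the samples is not settled. Same-numbered libraries of different groups had correlations of their deviations of −0.0442 to 0.0364, and differently numbered ones of −0.0418 to 0.0497. On day −2, however, replicate 1 was the lowest library of each line for FN1, TNC and THBS1. Its levels in control, MMP2sh1 and MMP2sh2 were 657, 393 and 738 CPM for FN1. They were 160, 144 and 155.5 CPM for TNC and 577, 577 and 640 for THBS1. FBN1 and LUM were lowest in replicate 1 of control and MMP2sh1 on that day, but not in that of MMP2sh2. With the replicate block, 131 of 136 results kept their call, VCAN in MMP2sh1 from day −2 to day +2 lost it (adjusted p = 0.0691) and 4 gained one. In MMP2sh1 against control, these were TNC on day 0 (−0.13, adjusted p = 0.0372) and THBS1 on day −2 (0.18, adjusted p = 0.016). The others were THBS2 in MMP2sh2 from day −2 to day +2 (0.75, adjusted p = 0.0341) and FBN1 in MMP2sh2 against MMP2sh1 on day +2 (−0.28, adjusted p = 0.00366). Low counts, at most 163 in a library for 5 members, limit what could be called.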
